A study of Mus musculus with 27 samples.

Results

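Of the 54532 genes in the table, 10 regulators were followed through the first days of conversion of mouse embryonic fibroblasts (MEFs) into induced neurons (iNs): the RNA-binding splicing regulators Ptbp1, Ptbp2, Rbfox2, Rbfox3, Elavl2, Elavl3, Elavl4, Nova1, and Srrm4, and the transcriptional repressor gene Rest. They are selected in the table by gene name. The 27 bulk RNA-seq libraries came from WT, Per1-/-, and Per2-/- MEFs at days 0, 2, and 4, with 3 libraries in each of the 9 groups. The MEFs were prepared from pooled mid-gestation embryos without head and heart, and by the study's methods all groups, day 0 included, had received lentiviruses before doxycycline for the reverse tetracycline transactivator and for neuronal transcription factors, among them Brn2 (Pou3f2) and Myt1l, under a doxycycline-inducible promoter. Doxycycline and neuronal medium were given from day 0, and days are counted from then, although the deposited description counts them from transduction, by which day 0 cells would not have been transduced. The mutants carry the Per1tm1Drw or the Per2tm1Drw allele. The labels call every library induced neurons, also at day 0.

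Splicing regulators of this kind bind short motifs in pre-mRNA and decide which exons are kept. PTBP1 is present in most cells other than neurons and represses neuronal exons, among them one whose skipping leads to decay of the Ptbp2 transcript, so that its paralog PTBP2 appears in young neurons when PTBP1 is lost. RBFOX, NOVA, neuronal ELAVL (Hu), and SRRM4 (nSR100) proteins favour neuronal exons or stabilise neuronal transcripts. REST (NRSF) binds the RE1 element and keeps neuronal genes silent outside the nervous system, and SRRM4 is known to shift splicing of the Rest transcript. Levels of whole genes, as measured here, do not tell one splice form from another.

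Depth was 15815013 to 24264097 fragments on genes per library. Levels are in FPKM (fragments per kilobase of gene length, scaled for depth), which can be compared between genes because it is per length. Of the 10 members, 9 averaged 0.5 FPKM or more and were tested with the other genes, 14932 in all, by limma on log2(FPKM + 0.1); Elavl3, Elavl4, and Srrm4 were below 0.5 FPKM on average at day 0 and passed that filter through the later days, so the number of members tested is not itself a result. A gene is said to have changed, or is called, at a log2 fold change of 0.58 (1.5-fold) or more in size and a p of up to 0.05 after Benjamini-Hochberg adjustment. Fold changes on this scale understate the changes of genes near 0. By the study's methods, loss of both proteins in the mutant MEFs was checked by western blotting. At the transcript level, Per1 was lower in every library labelled Per1-/- than in every WT library of the same day (3.23 to 4.96 against 5.44 to 6.33 FPKM at day 0), though not called (log2 difference -0.50, adjusted p = 0.771 in limma), and Per2 was higher in the libraries labelled Per2-/- than in WT libraries at day 0 (log2 difference 1.03, adjusted p = 0.00114). Per2 was also called higher in them at day 2 (0.82, adjusted p = 0.0191 in limma). At day 4 it was not called, but the ranges did not overlap (2.54 to 3.30 against 1.60 to 1.97 FPKM). Whole-gene levels do not check the deleted part, and the genotypes are named by their labels.

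Pou3f2 was induced in all groups after day 0, with 0.00800 ± 0.0110 FPKM (SD, n = 9) at day 0, 370.1 ± 171.0 at day 2, and 185.2 ± 96.0 at day 4. The summed level of 12 neuron markers was 62.5 to 129.6 FPKM at day 0, 127.2 to 183.2 at day 2, and 136.9 to 235.7 at day 4, while that of 12 fibroblast markers was 3773 to 4934, 3708 to 5447, and 4681 to 6470 FPKM. The sum of the fibroblast markers exceeded that of the neuron markers in every library, also at day 4. Macrophage markers were also present (47.2 to 491.0 FPKM at day 0 and 281.7 to 1088 at day 4), and the summed level of muscle markers was 83.3 to 411.8 FPKM at day 0 and 34.7 to 58.9 at day 4. In such bulk libraries, a transcript that is lost from each cell and a cell type that becomes rarer cannot be told apart.

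The promoters of 4 members that moved in opposite directions or at different times are shown first, since the results below turn on these genes. They are taken from the RefSeq promoter table (GRCm38.p6), read 5′ to 3′ on the strand of the gene, and end at the annotated start of the gene, with any base inside the gene left out. Elavl3 (minus strand, chr9:22052024-22052273) and Nova1 (minus strand, chr12:46818930-46819017) carry the E-box CAGCTG, a hexamer of the kind that basic helix-loop-helix factors bind, which is in capitals. Srrm4 (minus strand, chr5:116591818-116592067) and Ptbp1 (plus strand, chr10:79854182-79854426) hold none of the motifs searched. CAGCTG was the only form of the E-box searched. Other forms are present, such as CACGTG and CAGATG in Ptbp1, CAGATG in Srrm4, and CACCTG in Elavl3.

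Elavl3: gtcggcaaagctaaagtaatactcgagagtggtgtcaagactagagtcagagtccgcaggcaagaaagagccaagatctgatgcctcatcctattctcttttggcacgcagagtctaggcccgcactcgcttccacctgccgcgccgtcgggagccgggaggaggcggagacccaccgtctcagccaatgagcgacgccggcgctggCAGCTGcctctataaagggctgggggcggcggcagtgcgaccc
Nova1: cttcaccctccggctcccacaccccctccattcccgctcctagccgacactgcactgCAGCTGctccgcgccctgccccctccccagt
Srrm4: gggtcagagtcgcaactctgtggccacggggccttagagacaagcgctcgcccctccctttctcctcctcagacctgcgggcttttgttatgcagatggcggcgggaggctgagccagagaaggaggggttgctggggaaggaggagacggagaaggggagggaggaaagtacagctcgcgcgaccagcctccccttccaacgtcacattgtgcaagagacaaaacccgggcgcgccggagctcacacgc
Ptbp1: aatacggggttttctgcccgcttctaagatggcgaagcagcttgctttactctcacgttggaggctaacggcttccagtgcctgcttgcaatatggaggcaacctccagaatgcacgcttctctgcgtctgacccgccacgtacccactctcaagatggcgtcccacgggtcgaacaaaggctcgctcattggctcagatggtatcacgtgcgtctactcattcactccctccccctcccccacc

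Promoters of 8 of the 10 members matched by symbol, all but Rest and Rbfox2. In the 250 bases before the first listed start, read on both strands, CAGCTG was found for 2 of the 8 (Elavl3 and Nova1) and in 12.8% of all 27025 promoters. The POU octamer ATGCAAAT was found for none of the 8 (1.61% of all promoters), and neither was the left part of the RE1 element, TTCAGCACC (0.285%). Its right part, GGACAGC, was found once, for Ptbp2 (5.29% of all promoters), in a window (chr3:119783389-119783638) that lies inside the annotated span of the gene. The windows of Elavl2 and Rbfox3 also lie inside their genes. These are matches of letters in short windows, and they do not show binding.

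**Figure D1:**
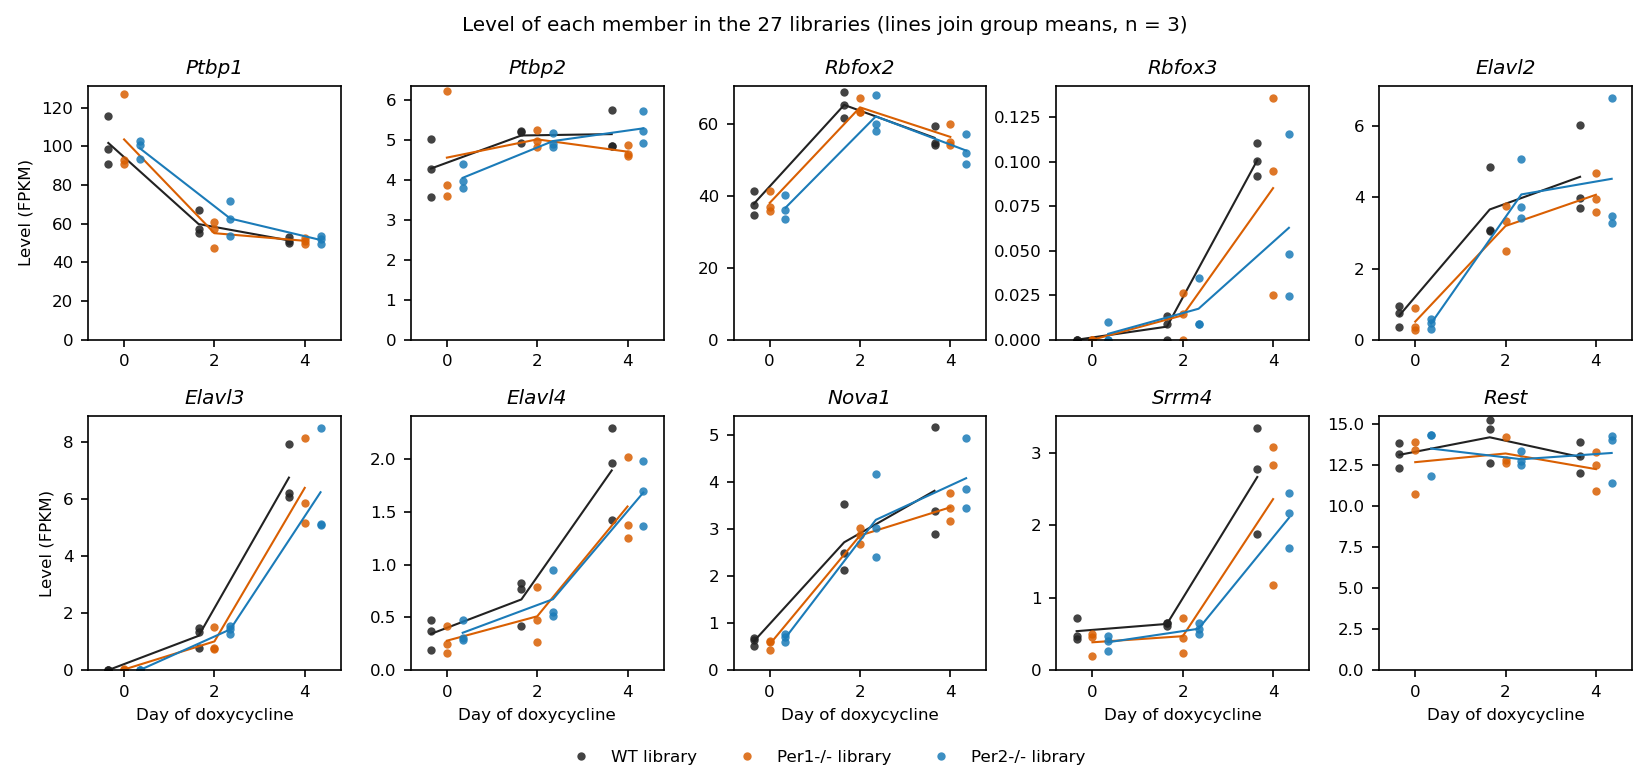
Level of each of the 10 members in FPKM (y axis, from 0, scaled per gene) against the day (x axis, with genotypes shifted sideways), 1 point per library and lines through the means of 3 libraries. Ptbp1 fell from about 101 to 51.3 FPKM, Rest stayed between 10.7 and 15.2 FPKM in all libraries, and Elavl3 rose from near 0 to between 5.10 and 8.48 FPKM.

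The order of the members by level changed over the days. At day 0 Ptbp1 was the highest (101.4 ± 12.5 FPKM, SD, n = 9), followed by Rbfox2 (37.5 ± 2.84), Rest (13.1 ± 1.24), and Ptbp2 (4.31 ± 0.852), and the ranges of these 4 did not overlap. Nova1, Elavl2, Srrm4, and Elavl4 had 0.616, 0.551, 0.436, and 0.325 FPKM, with neighbours in this order that overlapped, and Elavl3 and Rbfox3 were near 0. At day 4 Rbfox2 (55.1 ± 3.53) and Ptbp1 (51.3 ± 1.56) overlapped at the top, Rest was at the third place, and Elavl3 (6.46 ± 1.37), Ptbp2 (5.06 ± 0.427), Elavl2 (4.39 ± 1.23), Nova1 (3.79 ± 0.772), Srrm4 (2.38 ± 0.709), and Elavl4 (1.71 ± 0.371) followed, each overlapping the next. Elavl3 moved from the ninth place to the fourth, and Rbfox3 stayed last.

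Between days 0 and 2, Rbfox2, Elavl2, Elavl3, and Nova1 rose and Ptbp1 fell in each of the 3 genotypes, while Ptbp2, Elavl4, Srrm4, and Rest did not pass the test in any. These 5 of 9 tested members stand beside a background of 40.5% of all tested genes called in WT cells (20.8% higher and 19.7% lower), 39.6% in Per1-/- cells (20.8% and 18.8%), and 35.5% in Per2-/- cells (18.7% and 16.8%). Between days 2 and 4, Elavl3, Elavl4, and Srrm4 rose in each genotype and no member fell, where 3.21%, 2.44%, and 4.06% of all tested genes were called (1.62%, 1.38%, and 2.32% higher). These 3 are the members that passed the filter through the later days. The filter thus favours their share here and where they were called against day 0, so these shares are not support for a rise of the members as a set. Between days 0 and 4, Elavl2, Elavl3, Elavl4, Nova1, and Srrm4 rose and Ptbp1 fell in each genotype, beside 43.8%, 43%, and 40.3% of all tested genes (22.9%, 22.6%, and 21.6% higher and 20.9%, 20.4%, and 18.8% lower). Averaged over the genotypes, 6, 3, and 6 members were called in the 3 intervals, beside 42% of all tested genes (22.2% higher and 19.9% lower) up to day 2, 9.97% (6.54% higher) after it, and 45.6% (24.4% higher and 21.2% lower) over both. Groups of libraries that did not overlap, as given for single members below, were found for 67.2%, 60.5%, and 61.5% of all tested genes at day 2 against day 0, for 68.6%, 62.6%, and 63.8% at day 4 against day 0, and for 32.1%, 29.7%, and 28.8% at day 4 against day 2 in WT, Per1-/-, and Per2-/- cells. The members thus moved in 2 steps: Elavl2, Nova1, Rbfox2, and Ptbp1 were called up to day 2 and not after it, Srrm4 and Elavl4 were called within a genotype only in the comparisons that include day 4, and Elavl3 was called in both intervals. With the replicate number as a block, Elavl4 was also called at day 2 in each genotype, and the genes called from day 2 to day 4 numbered 829 in place of 479 in WT and 730 in place of 364 in Per1-/- cells. The comparisons of a genotype over days share libraries, so their values are set side by side and were not correlated.

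**Figure D2:**
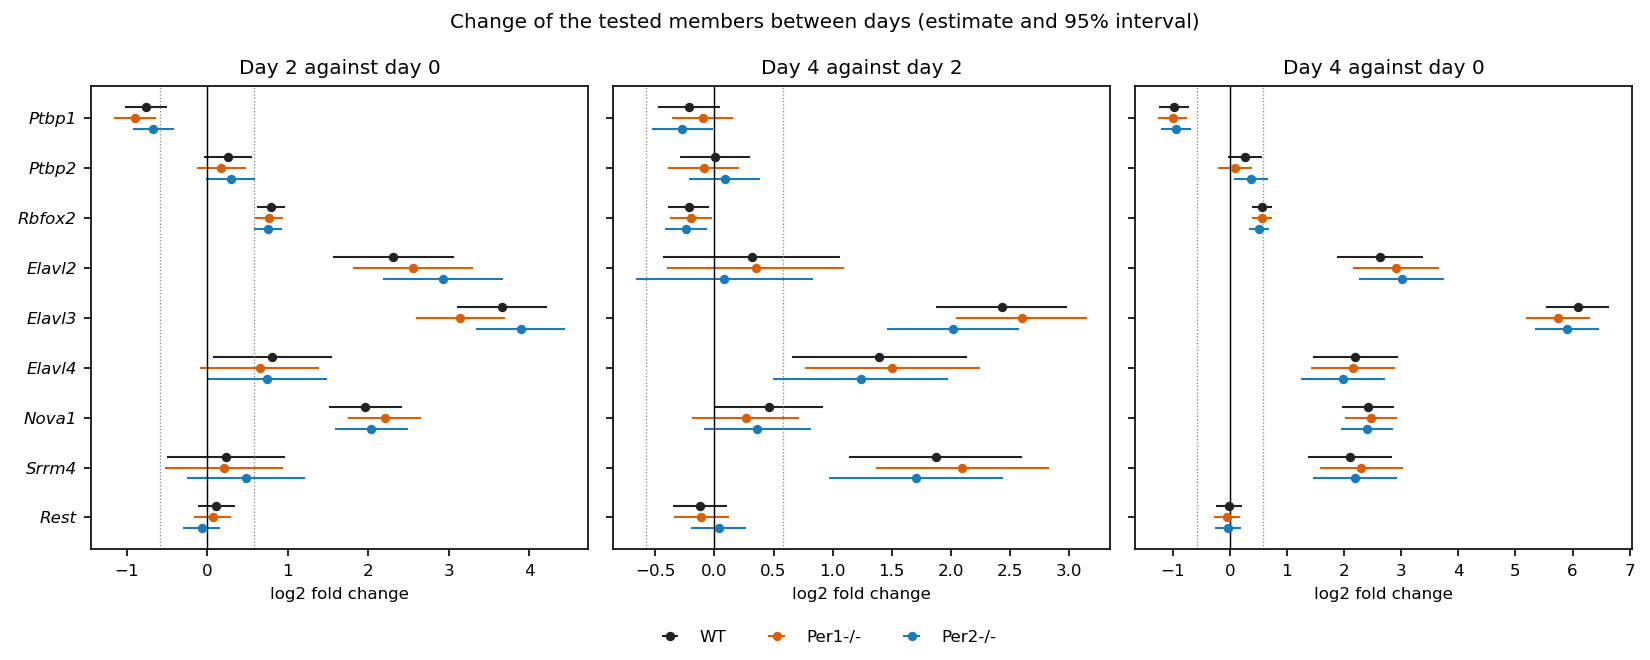
Log2 fold change (x axis, on the scale of log2(FPKM + 0.1)) of the 9 tested members (rows) between days, in 3 panels with their own x scales. Points are limma estimates per genotype, bars are 95% intervals, and dotted lines mark 0.58; Elavl3 had the largest rises in each panel (log2 5.74 to 6.09 at day 4 against day 0), and the estimates of Rest stayed between -0.12 and 0.11.

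Ptbp1 (chr10:79854427-79864771, GRCm38), the repressor of neuronal exons, fell in all 3 genotypes. In WT cells its level was 98.6, 90.8, and 115.7 FPKM at day 0, 67.2, 57.1, and 55.1 at day 2, and 51.3, 52.9, and 49.8 at day 4. In Per1-/- cells it was 90.7, 127.2, and 92.8 FPKM at day 0, 47.3, 60.7, and 57.2 at day 2, and 49.6, 51.2, and 52.7 at day 4. In Per2-/- cells it was 93.5, 100.8, and 102.5 FPKM at day 0, 71.9, 53.5, and 62.6 at day 2, and 53.6, 49.3, and 51.8 at day 4. Every library of days 2 and 4 lay below every library of day 0, and the libraries of day 4 spread over only 49.3 to 53.6 FPKM. The log2 fold change at day 4 against day 0 was -0.98 ± 0.12 (SE) in WT cells (adjusted p = 8.76e-07 in limma), -0.999 in Per1-/- cells, and -0.94 in Per2-/- cells. Most of the fall had taken place by day 2 (-0.76, -0.90, and -0.67), and from day 2 to day 4 the changes of -0.21, -0.10, and -0.27 did not pass the test. In Per2-/- cells the call at day 2 was lost without replicate 2 of day 2 (log2 -0.56). Ptbp1 shares 983 exon bases with genes on the other strand, among them Plppr3 and E130317F20Rik, and the libraries do not mark the strand. Plppr3 itself had 2.62 ± 0.627 FPKM (n = 9) at day 0 and 11.7 ± 1.82 at day 4. E130317F20Rik had 1.86 ± 0.32 and 3.76 ± 0.56 FPKM, so both moved in the opposite direction to Ptbp1. What reads of the shared bases add to Ptbp1 was not tested.

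Ptbp2 (chr3:119718742-119784466), the paralog that marks young neurons, was already present at day 0, and no change of the required size was called on the deposited scale. Its lowest, median, and highest levels were 3.58, 3.98, and 6.23 FPKM at day 0, 4.83, 4.98, and 5.26 at day 2, and 4.62, 4.88, and 5.76 at day 4. Days 2 and 4 overlapped, and in Per2-/- cells both lay above day 0. Over all genotypes, day 0 overlapped with them because of 2 libraries of day 0, replicate 1 of WT cells (5.02 FPKM) and replicate 2 of Per1-/- cells (6.23 FPKM). The latter was also the highest of its day for Ptbp1 and for the neuron markers (129.6 FPKM). Averaged over the 3 genotypes, Ptbp2 was higher by log2 0.24 at day 4 than at day 0 (95% interval 0.07 to 0.42, adjusted p = 0.0113), less than the 1.5-fold required. Within genotypes the log2 difference was 0.27 in WT, 0.09 in Per1-/-, and 0.38 in Per2-/- cells, with adjusted p of 0.111, 0.614, and 0.0289, and without replicate 2 of day 0 the value of Per1-/- cells was 0.33.

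The ratio of Ptbp1 to Ptbp2 in FPKM was 19.6 to 27.1 at day 0, 9.49 to 14.8 at day 2, and 8.61 to 11.01 at day 4. Day 0 did not overlap with the later days, and even at day 4 each library held at least 8.61 times as much Ptbp1 as Ptbp2. On the log2 scale, the ratio of Ptbp2 to Ptbp1 rose from day 0 to day 4 by 1.25 in WT, 1.09 in Per1-/-, and 1.32 in Per2-/- cells, values without a test. Ptbp3, the other paralog, did not belong to the members, and it had means of 15.5 to 20.9 FPKM over the 9 groups.

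The neuronal ELAVL genes rose in all 3 genotypes between days 0 and 4. Elavl3 (chr9:22015005-22052023) was the member with the largest rise: no fragment was counted in the 3 WT libraries of day 0, 2, 5, and 0 fragments were counted in Per1-/- cells, and 0, 0, and 1 in Per2-/- cells. At day 2 its level was 0.790, 1.34, and 1.47 FPKM in WT, 0.759, 1.52, and 0.737 in Per1-/-, and 1.45, 1.56, and 1.27 in Per2-/- cells. At day 4 it was 6.08, 6.23, and 7.95 FPKM in WT, 5.87, 8.14, and 5.17 in Per1-/-, and 5.10, 8.48, and 5.14 in Per2-/- cells. The 3 days did not overlap in any genotype, so that Elavl3 separated days 0, 2, and 4 completely. Against a floor of 3 fragments over the WT group of day 0, Elavl3 at day 4 was at least 933-fold higher. In Per1-/- cells, with 7 fragments in the group at day 0, the ratio was 303 (95% exact interval 147 to 755), and in Per2-/- cells, with 1 fragment, it was 2297 (412 to 90775), where intervals cover counting error only. In limma the log2 fold change at day 4 against day 2 was 2.43 ± 0.27 (SE) in WT cells (adjusted p = 2.83e-05), 2.60 in Per1-/- cells, and 2.02 in Per2-/- cells. Elavl3 shares 256 exon bases with Gm49318 on the same strand, which had 0 FPKM in all libraries.

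Elavl2 (chr4:91250763-91400785) was an early riser. Its lowest, median, and highest levels were 0.274, 0.468, and 0.955 FPKM at day 0, 2.49, 3.43, and 5.08 at day 2, and 3.28, 3.95, and 6.80 at day 4. Every library of day 2 was above every library of day 0, whereas days 2 and 4 overlapped in each genotype. Its log2 fold change at day 2 against day 0 was 2.31 ± 0.36 (SE) in WT cells (adjusted p = 1.27e-05 in limma), 2.56 in Per1-/- cells, and 2.93 in Per2-/- cells. From day 2 to day 4 the differences of 0.31, 0.35, and 0.08 did not pass the test, with 95% intervals that reached from -0.66 to 1.10.

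Elavl4 (chr4:110203722-110351909) followed late and from a low level. In WT cells it had 0.371, 0.188, and 0.472 FPKM at day 0, 0.416, 0.773, and 0.822 at day 2, and 1.42, 1.96, and 2.30 at day 4. In Per1-/- cells it had 0.163, 0.422, and 0.251, then 0.263, 0.792, and 0.476, and then 1.25, 2.02, and 1.38 FPKM. In Per2-/- cells it had 0.474, 0.286, and 0.302, then 0.553, 0.952, and 0.512, and then 1.70, 1.98, and 1.37 FPKM. All libraries of day 4 lay above all libraries of days 0 and 2. The log2 fold change at day 4 against day 0 was 2.20, 2.15, and 1.98 in WT, Per1-/-, and Per2-/- cells, with adjusted p of 1.78e-05, 2.36e-05, and 6.58e-05 in limma. At day 2 against day 0 the values of 0.81, 0.65, and 0.75 missed the threshold within genotypes (adjusted p of 0.0559, 0.121, and 0.0805), and the mean of the genotypes, 0.73, passed it (adjusted p = 0.0029), but not with a pseudocount of 1 (0.28). With the replicate number as a block, the values within genotypes were called (adjusted p of 0.0162, 0.0453, and 0.0259), and Elavl4 was higher at day 2 in 9 of 9 pairs of libraries with the same number. In WT and Per2-/- cells, though, deviations of such pairs at days 0 and 2 hardly correlated (0.017 to 0.0458 and 0.0641 to 0.0857). The calls of day 4 against day 2 (1.39, 1.504, and 1.24) were fragile: with 1 library left out, they were lost in 4 of 6 fits in WT cells (without replicates 1 or 3 of day 2 or replicates 2 or 3 of day 4), in 3 of 6 in Per1-/- cells (without replicates 1 or 3 of day 2 or replicate 2 of day 4), and in 5 of 6 in Per2-/- cells (all but replicate 2 of day 2). The highest adjusted p in those fits was 0.143, 0.0898, and 0.133.

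Together, Elavl2, Elavl3, and Elavl4 had 0.884 ± 0.324 FPKM (SD, n = 9) at day 0, 5.48 ± 1.31 at day 2, and 12.6 ± 2.82 at day 4. The make-up of this sum changed with the days. Elavl3 took 0.870% of it at day 0, 22.0% ± 3.31 at day 2, and 51.6% ± 2.46 at day 4, while Elavl2 took 60.8%, 66.9%, and 34.7% and Elavl4 38.4%, 11.1%, and 13.7%. Elavl1 (HuR), the member of the family found in most cell types, had 11.3 ± 1.34 FPKM at day 0 and 9.12 ± 0.761 at day 4, so that its ratio to the sum went from 14.1 to 0.751.

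**Figure D3:**
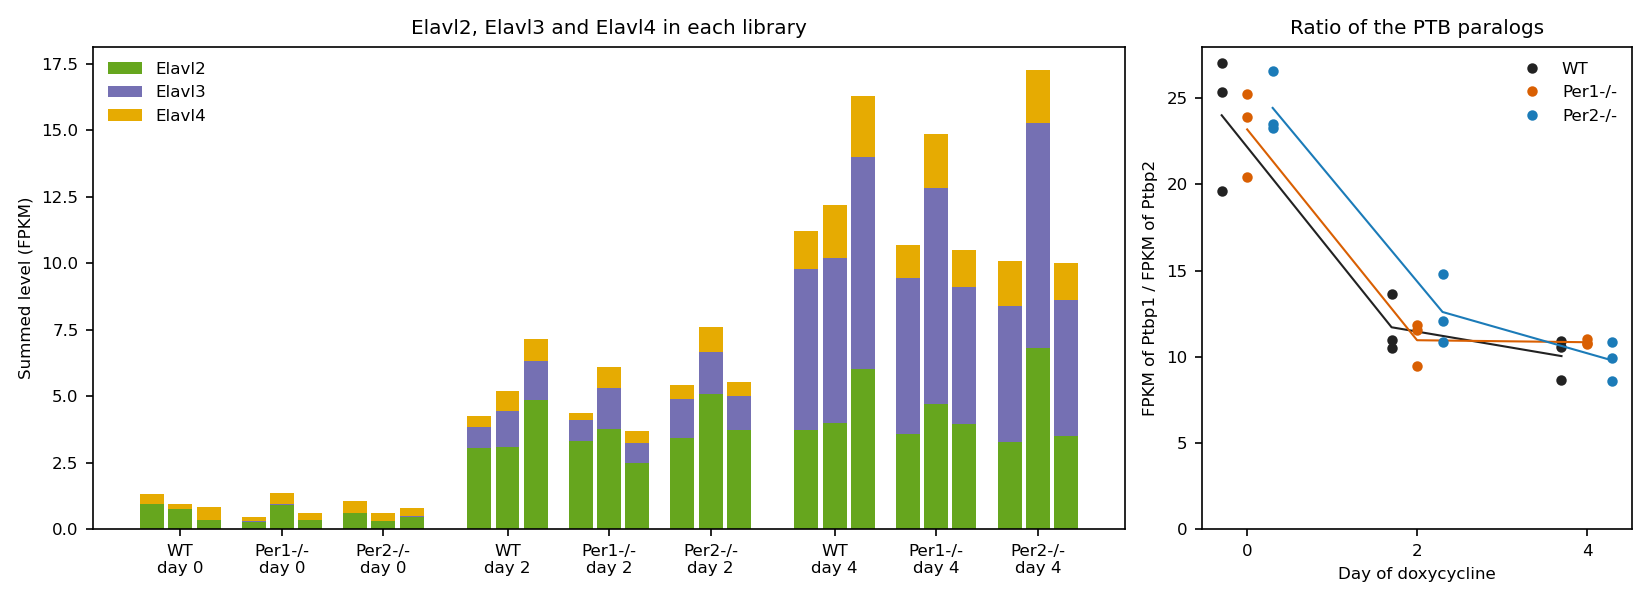
Left, summed level in FPKM (y axis) of Elavl2, Elavl3, and Elavl4 in each library (1 bar each, 3 per group of genotype and day, colours for the genes). Right, ratio of the FPKM of Ptbp1 to that of Ptbp2 (y axis) against the day, 1 point per library with lines through the group means; the ratio fell from between 19.6 and 27.1 at day 0 to between 8.61 and 11.01 at day 4.

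Nova1 (chr12:46694517-46818929), which governs synaptic exons in the brain, rose early, as Elavl2 did. Its lowest, median, and highest levels were 0.425, 0.627, and 0.758 FPKM at day 0, 2.13, 2.88, and 4.17 at day 2, and 2.90, 3.45, and 5.16 at day 4. Day 0 did not overlap with day 2. The log2 fold change at day 2 against day 0 was 1.96 ± 0.22 (SE) in WT cells (adjusted p = 1.65e-07 in limma), 2.20 in Per1-/- cells, and 2.03 in Per2-/- cells. After day 2 the mean change over the genotypes was log2 0.36 (95% interval 0.10 to 0.63, adjusted p = 0.0335), below the required fold. Nova1 shares 310 exon bases with Gm33869 on the same strand, which had 0.555 ± 0.187 FPKM (n = 9) at day 4.

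Srrm4 (chr5:116439275-116591817), the regulator of neuronal microexons, rose after day 2. In WT cells it had 0.424, 0.713, and 0.477 FPKM at day 0, 0.654, 0.613, and 0.646 at day 2, and 2.78, 1.88, and 3.35 at day 4. In Per1-/- cells it had 0.197, 0.456, and 0.4995, then 0.242, 0.717, and 0.446, and then 1.18, 2.83, and 3.08 FPKM. In Per2-/- cells it had 0.478, 0.269, and 0.408, then 0.652, 0.497, and 0.565, and then 2.17, 2.45, and 1.68 FPKM. Days 0 and 2 overlapped in WT and Per1-/- cells, and every library of day 4 was above all of them. The lowest library of day 4, replicate 1 of Per1-/- cells, was also the lowest Srrm4 library of its genotype at days 0 and 2. The log2 fold change at day 4 against day 2 was 1.87 ± 0.35 (SE) in WT cells (adjusted p = 0.0044 in limma), 2.09 in Per1-/- cells (adjusted p = 0.00197), and 1.71 in Per2-/- cells (adjusted p = 0.00733). At day 2 against day 0 the differences were 0.24, 0.21, and 0.49, and none passed the test. Srrm4 shares 68 exon bases with Srrm4os on the other strand, which had 0.0167 FPKM at day 0 and 0.410 ± 0.185 (n = 9) at day 4, and reads of the shared bases cannot be told apart.

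The RBFOX genes lay far apart in level. Rbfox2 (chr15:77078990-77307004), which is expressed in many tissues, had a lowest, median, and highest level of 33.6, 36.9, and 41.3 FPKM at day 0, 58.1, 63.4, and 68.8 at day 2, and 48.9, 54.8, and 60.1 at day 4. Day 0 did not overlap with the later days, and within each genotype all libraries of day 4 lay below those of day 2. The log2 fold change at day 2 was 0.79 ± 0.08 (SE) in WT cells (adjusted p = 9.87e-08 in limma), 0.77 in Per1-/- cells, and 0.76 in Per2-/- cells. At day 4 against day 0 it was 0.57, 0.57, and 0.52 (adjusted p of 5.94e-06, 6.72e-06, and 2.17e-05), so that it missed the call by its size alone. Leaving out 1 library brought it over that size in 3 of 6 fits in WT cells (without replicate 2 of day 0 or replicates 1 or 2 of day 4, up to 0.64), in 3 of 6 in Per1-/- cells (without replicate 1 of day 0 or replicates 1 or 3 of day 4, up to 0.63), and in 1 of 6 in Per2-/- cells (without replicate 2 of day 0, 0.59).

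Rbfox3 (chr11:118489762-118911597), which encodes the neuronal nuclear antigen NeuN of mature neurons, was close to the limit of detection. At day 0, 1 fragment was counted over the 9 libraries together, and at day 2 the libraries held 0 to 4 fragments. At day 4 WT libraries held 12, 13, and 12 fragments (0.110, 0.1004, and 0.0919 FPKM), Per1-/- libraries 3, 9, and 18, and Per2-/- libraries 15, 3, and 6. Against a floor of 3 fragments per group of day 0, Rbfox3 at day 4 was at least 11.6-fold higher in WT and at least 8.30-fold higher in Per1-/- cells, and in Per2-/- cells the ratio to 1 fragment was 20.0 (95% exact interval 3.26 to 821, counting error only). Rbfox3 was left out of the test of 14932 genes for its low mean, and in the fit of all genes above 0 it was called at day 4 against day 0 in each genotype (adjusted p of 0.000241, 0.00143, and 0.0161).

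Rest (chr5:77265491-77286432) did not pass the test in any comparison. Its lowest, median, and highest levels were 10.7, 13.4, and 14.3 FPKM at day 0, 12.5, 12.8, and 15.2 at day 2, and 10.9, 13.02, and 14.2 at day 4. The 3 days overlapped in each genotype. Its log2 difference at day 4 against day 0 was -0.01 for WT (95% interval -0.24 to 0.21), -0.04 for Per1-/- (-0.27 to 0.19), and -0.03 for Per2-/- cells (-0.26 to 0.20), and averaged over the genotypes it was -0.03 (-0.16 to 0.10, adjusted p = 0.677 in limma). The intervals exclude a change of 1.5-fold in either direction on the scale of the deposited FPKM.

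These directions hold relative to the bulk of genes, since the deposited FPKM carry a size factor that keeps the median gene level between days (median log2 change of -0.01 at day 4 against day 0 over all tested genes). With levels recomputed per total fragments, this median became 0.25, and 71.9% of the called genes were higher in place of 53.6%. On that scale Rest was higher at day 4 by log2 0.24, close to that median, Ptbp1 was lower by 0.70, and Rbfox2 was higher by 0.82 and passed the test. The call of Ptbp1 at day 2 was lost in WT cells (log2 -0.46) and in Per2-/- cells (-0.40), while Elavl4 at day 2 was gained in all 3 genotypes (1.04, 0.86, and 0.96) and Ptbp2 at day 4 in Per2-/- cells (0.62). With levels rescaled to a common sum, Ptbp2 was called at day 2 in WT and Per2-/- cells (0.69 and 0.61) and at day 4 (0.66 and 0.62), and Srrm4 at day 2 for the mean of the genotypes (0.62).

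The genes around the members were followed in 3 lists. Of 30 other splicing regulators, 26 were tested, and at day 4 against day 0 11 rose and 4 fell in all 3 genotypes, with a median log2 change of 0.25 over the list averaged over the genotypes and of -0.01 over all tested genes. Of all tested genes, 17.6% rose and 15.6% fell in all 3 genotypes. Of the 26, 5 had under 0.5 FPKM at day 0 and passed the filter through later days. Those with the largest rises were Srrm3, a relative of Srrm4 (mean log2 change 4.25), Celf3 (4.00) and Nova2 (3.34), relatives with neuronal roles, Rbm24 (2.85), a regulator of muscle splicing, and Khdrbs2 (2.74), a STAR family protein of brain. Srrm3 went from 0.00399 FPKM at day 0 to 1.497 ± 0.336 at day 2 (n = 9) and so was near its level of day 4, 1.94 ± 0.535, at a time when Srrm4 had not passed the test. Nova2 had 0.124, 1.84, and 2.15 FPKM on the 3 days, similar in time to Nova1, and Celf3 had 0.129, 0.916, and 3.57 FPKM. Those that fell were Esrp2, an epithelial splicing regulator (-2.85), Mbnl2, a muscleblind protein (-0.95), Khdrbs3 (-0.76), and Celf1 (-0.64). Rbm24 stood at 8.11 FPKM at day 2 and 4.18 at day 4, and it fell over that interval (-0.95, adjusted p = 0.00598 in limma, mean of genotypes).

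Of the 20 partners and regulators of REST, all were tested, and 3 rose and none fell in all 3 genotypes at day 4 against day 0, a share (3 of 20) close to the 17.6% of all tested genes that rose. Rcor2, a CoREST family corepressor, had 4.19 ± 1.26 FPKM at day 0, 22.7 ± 2.46 at day 2, and 14.9 ± 1.39 at day 4 (n = 9). Phf21a, a component of the LSD1-CoREST complex, had 5.36 ± 0.594, 16.1 ± 2.05, and 11.6 ± 0.830 FPKM. The mean log2 changes of Rcor2 and Phf21a at day 4 were 1.86 and 1.10, and the median over the 20 genes was 0.24. In Per1-/- cells 6 partners were called higher and 1 lower, but the differences between genotypes in this change were not called for any gene of the list.

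Of 25 genes known as REST targets, 16 were tested, and 13 rose and 1 fell in all 3 genotypes at day 4 against day 0, with a median log2 change of 2.11 averaged over the genotypes, beside 17.6% and 15.6% of all tested genes. This count and median are favoured by the filter: 10 of the 16 had under 0.5 FPKM at day 0 and passed through the later days, and the 9 not tested had means of up to 0.326 FPKM. Those with the largest rises were Chga (4.81) and Syt4 (3.96), proteins of secretory vesicles, Celsr3 (4.28), a cadherin of axon guidance, Snap25 (4.11), a SNARE protein of the synapse, and Gria2 (4.04), an AMPA receptor subunit. Snap25 had 0.0107 FPKM at day 0, 0.182 ± 0.0455 at day 2, and 1.86 ± 0.504 at day 4 (n = 9), and Chga had 0.0176, 0.706 ± 0.232, and 3.28 ± 0.950 FPKM. Bdnf fell from 15.3 ± 4.06 FPKM to 3.10 ± 0.624 and 2.17 ± 0.419. From day 2 to day 4, 9, 7, and 9 of the 16 were called higher in WT, Per1-/-, and Per2-/- cells, and up to day 2, 11, 9, and 11 had been called higher and 3, 2, and 3 lower, where 1.62%, 1.38%, and 2.32% of all tested genes were called higher after day 2 and 20.8%, 20.8%, and 18.7% up to it. The list shares Snap25, Stmn2, and Tubb3 with the neuron markers.

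**Figure D4:**
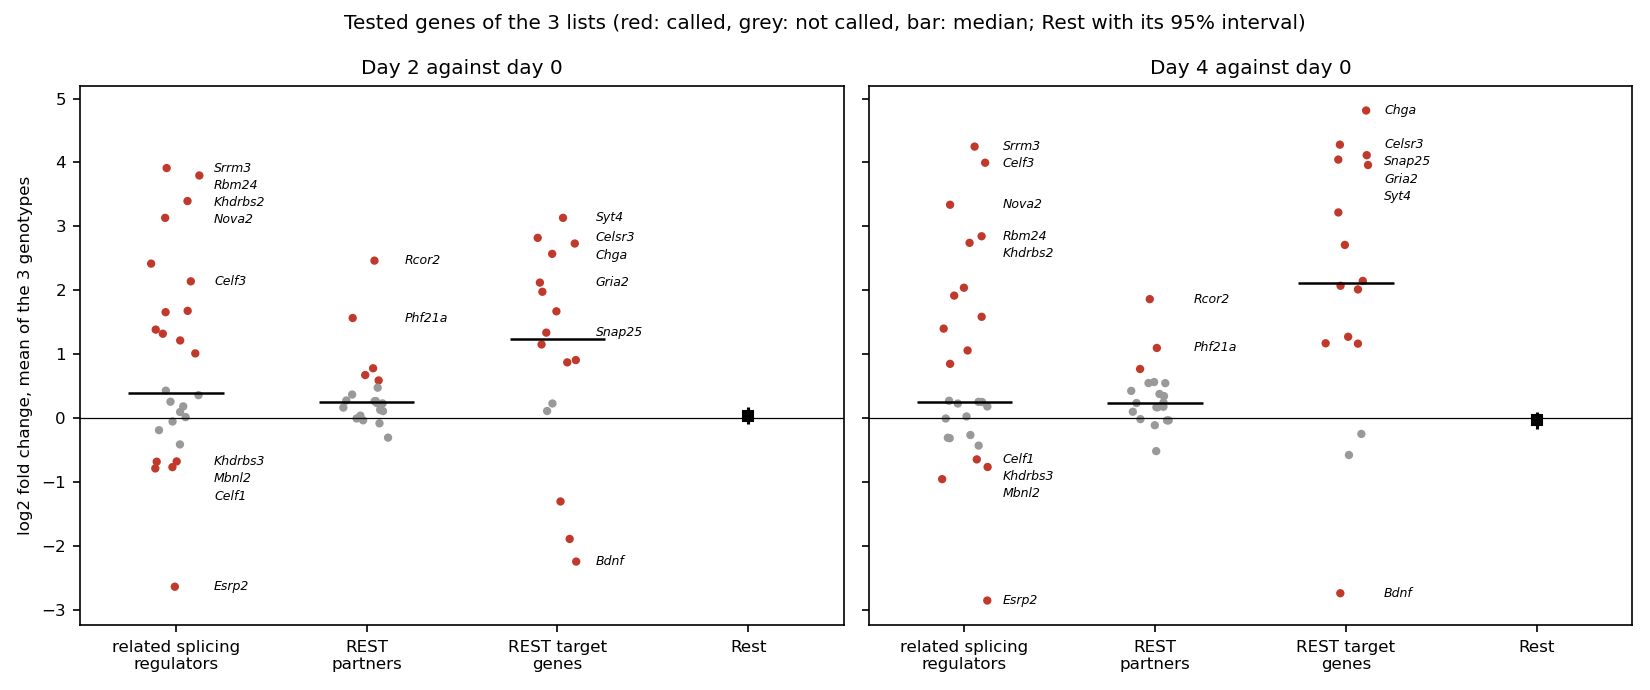
Log2 fold change (y axis, mean of the 3 genotypes) of the tested genes of 3 lists and of Rest (x axis) at day 2 and at day 4 against day 0, 1 point per gene, red where called, with a bar at the median and names of selected genes given from the highest down. At day 4 the medians were 0.25, 0.24, and 2.11, while Rest was at -0.03 with a 95% interval of -0.16 to 0.10.

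Whether loss of Per1 or Per2 altered these regulators was asked by comparing genotypes on each day. No member was called in any of the 9 comparisons between genotypes in limma, and none of the 81 values reached an unadjusted p of 0.05, while at days 0, 2, and 4 0.0134%, 0.0067%, and 0.0268% of all tested genes were called for Per1-/- against WT, 0.0067%, 0.0268%, and 0.0067% for Per2-/- against WT, and 0.0201%, 0.0737%, and 0.556% for Per1-/- against Per2-/- cells. With voom weights on recovered fragments the count was also 0. The paper used DESeq2, a test on counts, at the same thresholds on these libraries. It reported far more genes that differed in Per1-/- cells from both other genotypes, nearly all of them higher at days 2 and 4, with many macrophage genes. The small shares called here therefore do not show that few genes differ between genotypes. The log2 differences of the members lay between -0.53 and 0.27. The largest were those of Elavl3 in Per1-/- against Per2-/- cells at day 2 (-0.53, 95% interval -1.09 to 0.02, adjusted p = 0.639), of Srrm4 in Per1-/- against WT cells at day 2 (-0.47, -1.20 to 0.27, adjusted p = 0.999), and of Elavl2 in Per2-/- against WT cells at day 0 (-0.45, -1.20 to 0.30, adjusted p = 1). For Rest, Ptbp1, Ptbp2, and Rbfox2 the intervals of all 9 differences stayed between -0.46 and 0.43, so a difference of 1.5-fold was outside them. For Elavl2, Elavl3, Elavl4, and Srrm4 they reached down to between -1.09 and -1.20, so that a 2-fold lower level lay within at least 1 of their intervals. The intervals of Nova1 reached from -0.74 to 0.68, so a difference of 1.5-fold in either direction lay within at least 1 of them.

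Only 1 member separated the libraries of a pair of genotypes, in 1 of the 9 comparisons; over all tested genes this share was 5.11%, 10.3%, and 14.6% for Per1-/- against WT at days 0, 2, and 4, 7.6%, 9.98%, and 10.2% for Per2-/- against WT, and 6.94%, 16.1%, and 19.2% for Per1-/- against Per2-/- cells. Ptbp2 was lower in all libraries labelled Per1-/- at day 4 (4.62, 4.65, and 4.88 FPKM) than in all libraries labelled Per2-/- (4.94, 5.72, and 5.24 FPKM), and the log2 difference of -0.16 was not called (adjusted p = 0.7 in limma). In the 6 comparisons of the change over days between genotypes, none of the 54 values was called or reached an unadjusted p of 0.05, and no gene of all tested was called (0%). Their estimates lay between -0.75 and 0.61, with intervals of up to 1.06 to either side. The summed level of macrophage markers at day 4 was 724 to 1088 FPKM in Per1-/- libraries, 392.1 to 512.5 in WT libraries, and 282 to 362 in Per2-/- libraries. None of the 12 markers was called between genotypes at day 4. Their median log2 difference was 1.06 in Per1-/- against WT and 1.45 in Per1-/- against Per2-/- cells, so differences of this size could go uncalled. The part of these markers in the values of the members was not tested.

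**Figure D5:**
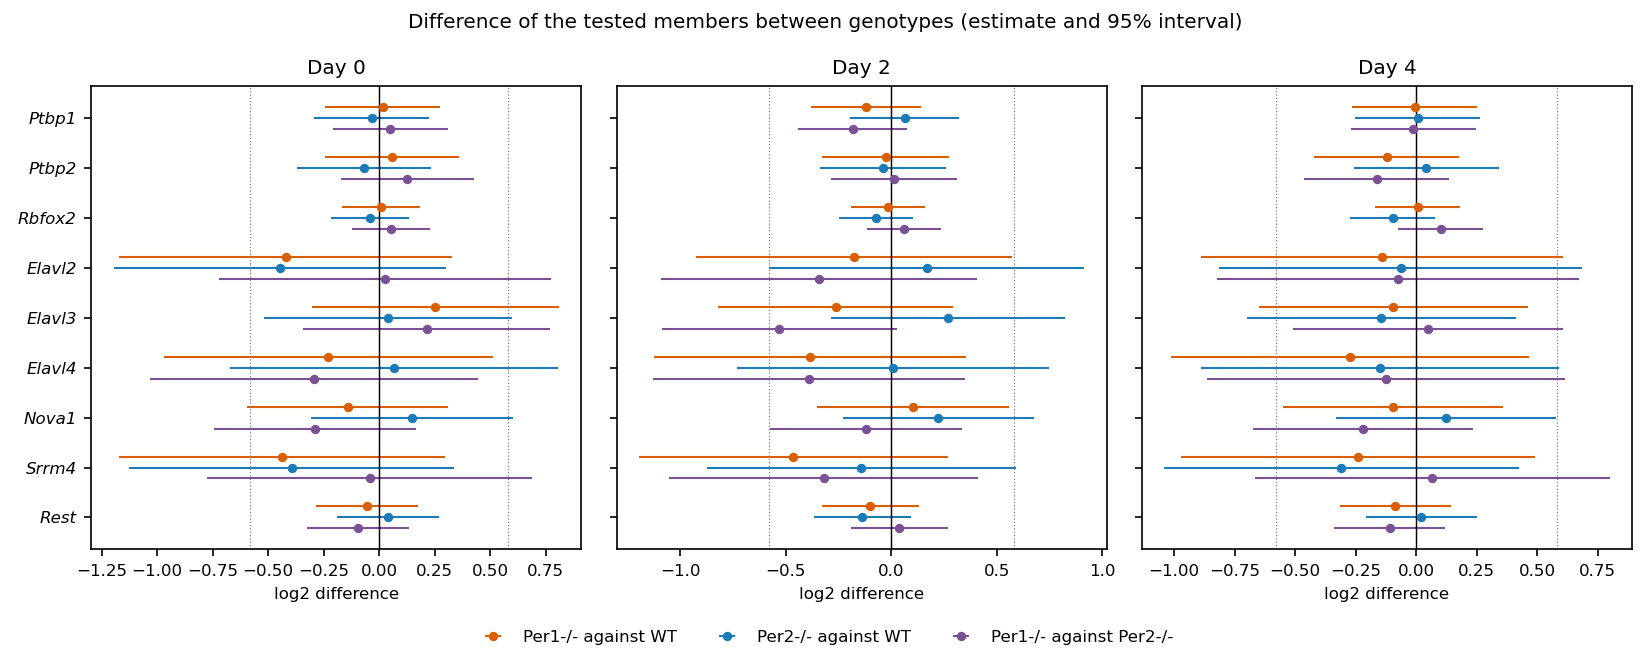
Log2 difference (x axis) of the 9 tested members (rows) between genotypes at days 0, 2, and 4 (panels with their own x scales), as limma estimates with 95% intervals. All points lie between -0.53 and 0.27 and every interval includes 0; the intervals of Rest, Ptbp1, Ptbp2, and Rbfox2 are the narrow ones.

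Libraries of a group also differed among themselves. At day 4 the summed ELAVL level was highest in replicate 3 of WT (16.3 FPKM), replicate 2 of Per1-/- (14.9), and replicate 2 of Per2-/- (17.3). The summed level of neuron markers was the highest of its group in the same 3 libraries (232, 220, and 236 FPKM). Pou3f2 was highest in the same libraries of WT (206.8 FPKM) and Per2-/- cells (428.7 FPKM), but in Per1-/- cells replicate 1 held the most (177.4 FPKM). Other members were ordered differently: Srrm4 at day 4 was highest in replicate 3 of Per1-/- cells, and Rbfox3 was highest in replicate 1 of WT cells. Whether the amount of this factor moves with the level of these members was not tested.

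Across the 27 libraries, the genes with the pattern most like each member were named by Pearson's r of log2(FPKM + 0.1), a description in which all points share the 3 days. Ptbp1 was closest to Eftud2, a core spliceosome GTPase (r = 0.992), Cks1b (0.985), and Ran (0.985). Elavl3 was closest to Myt1 (0.994), Ksr2 (0.993), and Mapk8ip2 (0.992), Elavl2 to Mcf2l (0.983), and Nova1 to Lsamp and Hepacam2 (0.985 each). Elavl4 was among others close to Snap25 (0.936) and Ina (0.929), and Srrm4 to Igfbpl1 (0.943), Pak6 (0.94), and Neurod6 (0.939). Rbfox2 was closest to Jmy (0.983), Runx1t1 (0.98), and Gpam (0.978). For Ptbp2 and Rest the best values were lower, 0.897 with Tdg and 0.762 with Ror2. Among the members themselves, r was highest for Elavl2 with Nova1 (0.957) and most negative for Ptbp1 with Nova1 (-0.945), and Rest had values between -0.163 and 0.13 with the other 8.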

How the data were processed

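Bulk RNA-seq was done by the authors on poly-A RNA of 27 libraries, 3 per group. According to the paper and the labels, the authors aligned reads to GRCm38 with HISAT2 2.0.5, counted them on Ensembl genes with featureCounts 1.5.0-p3 from nondirectional libraries, and deposited FPKM, which were used here as the authors deposited them. Each FPKM, solved for fragments with the deposited gene length, gave whole fragments in 100% of values (tolerance 0.01). The library factors found in this way show that the deposited FPKM include a size factor, which keeps the median gene level between days. A count-based test was not the main result because the unit is FPKM; voom weights on the recovered fragments were an alternative.

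Here log2(FPKM + 0.1) of 14932 genes (those averaging 0.5 FPKM or more) was fitted with limma 3.58.1 (R 4.3.3; lmFit, contrasts.fit, and eBayes with a trend) in 9 groups, without a replicate block. Benjamini-Hochberg adjustment ran over all tested genes of each comparison. The fit was also run on simulated fragments, with independent libraries and few genes changed, only in WT cells at day 4. In the data far more genes changed over days, and libraries with the same number shared deviations. The simulation therefore does not check the fit under these conditions. Genes are named by a fixed rule: all 10 members, up to 5 genes per direction of each list called on day 4 in all genotypes, the transduced factors, Per1 and Per2, and the 3 genes most like each member; Ptbp3, Elavl1, and genes that overlap members are named besides. Some genes under this rule are not reported here. The members and lists were chosen with earlier results of these data known. The labels call replicates biological but do not tie them to separate animals, so p-values measure the spread between these libraries. Replicate pairs differed by more than counting error, with a chi-square of 10.4 to 77.9 for each degree of freedom, so none was the same library sequenced again. This does not show that they came from separate cultures. Positions are those of GRCm38, and promoters are from RefSeq (GRCm38.p6). Alternatives were other pseudocounts (1 and 0.01), filters (a mean of 1 FPKM, or all genes above 0), a replicate block, only the groups compared, TPM-like rescaling, voom, no minimum fold change, levels per total fragments (added after seeing the data), and each library left out. Deviations of libraries with the same number correlated above 0.1 in 3 of 3 pairs in 3 of the 9 comparisons of days within a genotype. These were days 2 and 4 of WT cells, and days 0 and 2 and days 2 and 4 of Per1-/- cells. In the other 6, not every pair did so. The replicate block took the numbers as pairs in all 9 comparisons, and the main fit in none.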

Additional observations from a re-analysis of the deposited data

How the results depend on the processing

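Of 273 counts of called members and ratio changes under alternatives other than leaving out a library, 271 stayed within the margin of 1.5 times or 1 SD, and all 252 values with 1 library left out did so. The exceptions were the members called on day 4 against day 2, which went from 3 to 1 in Per1-/- cells when only the compared groups were fitted, because Srrm4 (adjusted p = 0.0652) and Elavl4 (0.0793) were lost, and from 3 to 6 for the mean of genotypes with no minimum fold change. The counts of the 9 comparisons between genotypes and of the 6 of their day changes were 0 in the main fit and stayed 0, which adds to both shares. A count can also stay the same while its members change. After rescaling to a common sum, Ptbp1 was lost and Elavl4 gained in Per1-/- cells on day 2. With 1 library left out, counts ranged from 4 to 6 on day 2 and from 6 to 7 on day 4 against day 0, and from 2 to 3 on day 4 against day 2. Rescaling to a common sum turned the sign of uncalled differences: Ptbp2 on day 4 against day 2 became -0.0278 in WT cells and -0.0777 for the mean of genotypes, and Rest on day 4 against day 0 became 0.38, 0.22, and 0.22 in WT, Per1-/-, and Per2-/- cells and 0.27 for the mean, and in Per2-/- cells 0.26 on day 2 against day 0 and -0.0442 on day 4 against day 2. Levels per total fragments gave Ptbp2 -0.00025 and -0.0138 in those comparisons of days 4 and 2, and Rest 0.28, 0.21, 0.22, and 0.24 on day 4 and 0.20 on day 2 in Per2-/- cells. The medians of all genes moved to 0.29 and 0.25 under these scalings on day 4 against day 0 (74.1% and 71.9% of calls higher, against 53.6%). With rescaling to a common sum, the call of Ptbp1 was lost on day 2 in all 3 genotypes (-0.33, -0.50, and -0.34) and on day 4 in WT cells (-0.5787), and Rbfox2 (0.97, 0.84, and 0.77) was gained on day 4, as was Elavl4 on day 2 (1.15, 0.94, and 1.02). With a pseudocount of 1, Elavl4 on day 2 was not called for the mean of genotypes (0.28). Uncalled differences that changed sign with 1 library left out ranged, for Rest on day 4 against day 0, from -0.0660 to 0.0396 in WT, -0.16 to 0.0357 in Per1-/-, and -0.12 to 0.0721 in Per2-/- cells and from -0.0685 to 0.0043 for the mean. For Rest on day 2 against day 0 they ranged from -0.0502 to 0.14 in Per1-/- cells and from -0.0021 to 0.0632 for the mean, and on day 4 against day 2 from -0.0208 to 0.14 in Per2-/- cells. For Ptbp2 they ranged from -0.0594 to 0.33 on day 4 against day 0 in Per1-/- cells and, on day 4 against day 2, from -0.0757 to 0.0465 in WT cells and from -0.0263 to 0.0167 for the mean. They were -0.11 to 0.53 for Srrm4 on day 2 in Per1-/- cells and -0.25 to 0.27 for Elavl2 on day 4 against day 2 in Per2-/- cells. The causes were not tested.

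Over the days of a genotype, libraries with 1 number had correlations of deviations of -0.0172 to 0.294, above 0.1 in 14 of 27 pairs, and 26 of 27 libraries correlated best with their own number; every pair was above 0.1 in 3 of 9 comparisons. With the replicate block, members called on day 2 against day 0 were 6, 6, and 6 in the 3 genotypes in place of 5, since Elavl4 passed (adjusted p of 0.0162, 0.0453, and 0.0259), and calls over all genes on day 4 against day 2 went from 479, 364, and 606 to 829, 730, and 1051. No other call of a member over days within a genotype changed. Calls over all genes between genotypes also moved by over 1.5 times, for Per1-/- against Per2-/- cells on day 4 from 83 to 144 with the block, 191 with a pseudocount of 1, 266 with voom, and 19 after rescaling, with no member called under any of these. Precision is limited by 3 libraries per group, and for Elavl3 and Rbfox3 on day 0 by counts of 0 to 5 fragments per library.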
